A study of Solanum lycopersicum with 12 samples.

Results

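The nuclear genes for photosystem and light-harvesting proteins were read over all arrays of a tomato leaf experiment. They were chosen by a rule on gene names, set with earlier results of these data known. A probe set, the group of short probes that measures a transcript on the array, was taken where its gene symbol in the array annotation starts with CAB, LHC, PSB, PSA or RBCS, or is PETE. Of 10209 probe sets, 909 have a symbol, and 8 met the rule: CAB4, CAB5 and CAB6A, then PSBO, PSBP, PsbQ and PSBR, and PETE. No symbol in the annotation starts with LHC, PSA or RBCS. Among the probe sets with a symbol, each gene has 1, and all 8 passed the filter on low values. All 8 matched the RefSeq gene table by gene ID, in which 26 nuclear genes carry such a symbol, so most of the family is not described here.

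Plants were Solanum lycopersicum cv. Ailsa Craig, 4 weeks old at the start. Leaves were sprayed with Alethea or with distilled water, and a day later the pots were watered with 100 mM NaCl or with water. Alethea is a plant activator, sprayed diluted in water, that holds potassium dihydrojasmonate, sodium benzoate and L-arginine. It also holds the mineral nutrients zinc, iron, manganese, copper, magnesium and boron, so its agents cannot be told apart. The 4 groups were AS (Alethea and then salt), AW (Alethea and then water), WS (water and then salt) and WW (water and then water). The 3rd true leaf was frozen 24 h after NaCl and 48 h after Alethea. An array holds the leaves of 3 plants. Sampling was repeated on 3 separate occasions, which are the replicates of every group. That gives 12 arrays, and a value says nothing about single plants.

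Chlorophyll a/b-binding (CAB) proteins are the antenna of the thylakoid membrane: they bind chlorophyll and pass absorbed light energy to the photosystem cores. Photosystem II then takes electrons from water at its oxygen-evolving complex, and plastocyanin carries electrons on to photosystem I. The genes described here lie in the nucleus, their products are imported into the chloroplast, and their transcripts are among the most abundant in a green leaf.

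Values were log2 signals normalised by the authors with GCRMA. All 8 genes lay near the top of that scale on every array, between 14.46 and 15.31, where array medians were 7.66 to 7.76 and array maxima 15.51 to 15.84. A value was 0.31 to 1.17 log2 units below the highest value of its own array, and between 7 and 93 probe sets on the array were higher. The genes moved little. The range of a gene over the 12 arrays was 0.17 log2 units for CAB4 at the least and 0.69 for CAB5 at the most. Whether probes at this level were saturated cannot be read from the deposited values and was not tested. Fruit transcripts, as a check of the tissue, were low: E8, a fruit ripening gene, lay at 2.43 to 2.60, PG2, the fruit polygalacturonase, at 2.29 to 2.47, and 2A11, a fruit-specific transcript, at 1.72 to 1.80.

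**Figure D1:**
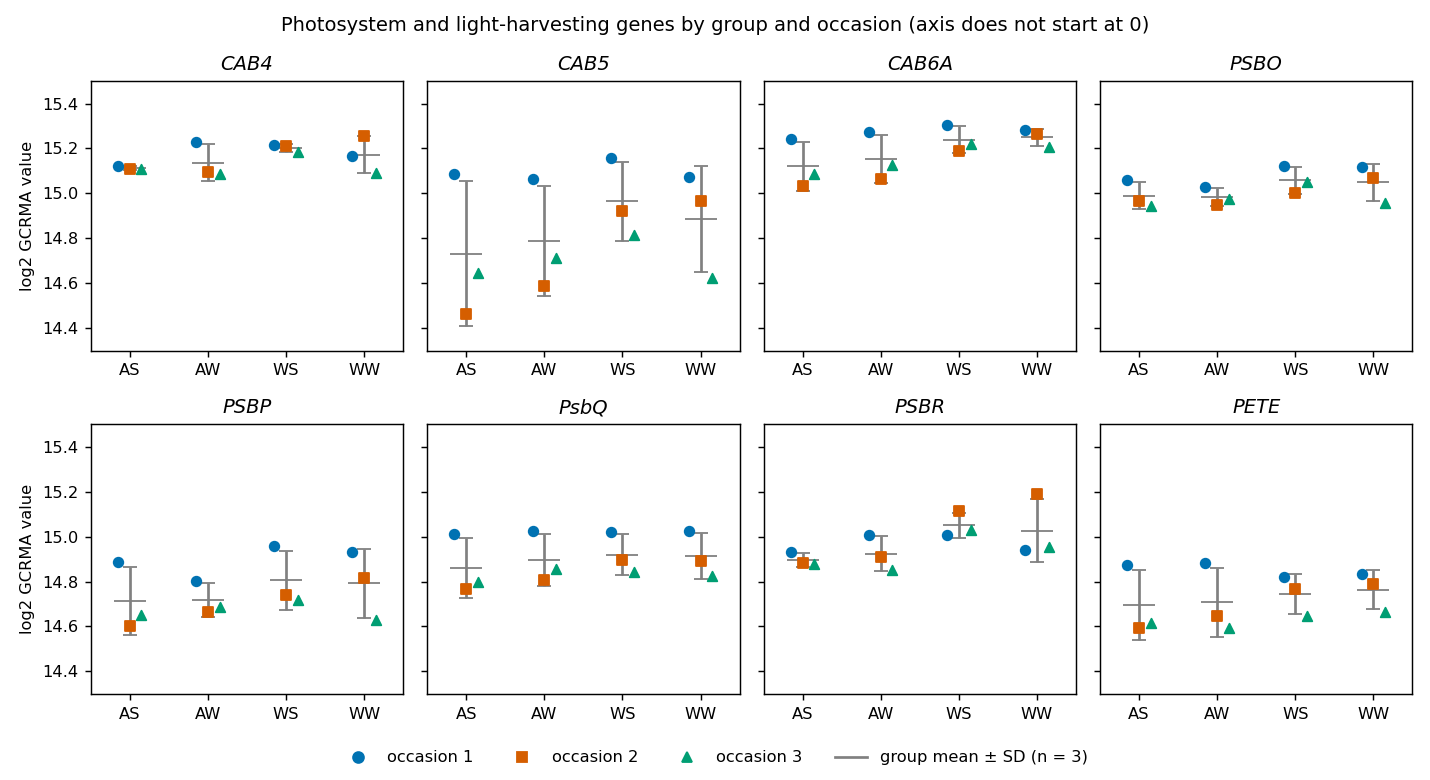
Log2 GCRMA value (vertical axis, which does not start at 0) of the 8 genes in AS, AW, WS and WW leaves. Points are the 3 arrays of a group, coloured by occasion, and bars are the group mean ± SD; the groups overlap for most genes, and occasion 1 is the highest in every group of CAB5, CAB6A, PSBO, PSBP, PsbQ and PETE.

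The first comparison asked whether salt altered the level of these transcripts. A change is given in log2 units, salt minus water over both pre-treatments, from a limma fit with the occasion as a block, and calls were made on p-values adjusted over 7779 probe sets (Benjamini-Hochberg, threshold 0.05). None of the 8 genes was called for salt, and none had an unadjusted p under 0.05. Of all probe sets, 0.0386% were called for salt by limma and 14.0% had an unadjusted p under 0.05. The changes of the 8 genes lay between -0.02 for CAB6A and 0.01 for CAB5, with 4 of 8 below 0, and the signs of CAB4, CAB5, PSBO and PSBP turned under at least 1 other scaling of the arrays. Their smallest adjusted p was 0.914. The widest 95% interval of a salt change, that of CAB5, ran from -0.19 to 0.21, which is 0.878 to 1.16 times the level with water. The median change of the 8 was 0.00054 on the log2 scale, and that of all probe sets 0.00029.

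The pre-treatments were also read apart. Without Alethea, WS minus WW was -0.02 to 0.08, and after Alethea, AS minus AW was -0.06 to 0.01. No gene was called in either comparison, beside 0.0386% of all probe sets in WS against WW and 0% in AS against AW. At an unadjusted p under 0.05, none of the 8 genes passed, beside 10.5% of all probe sets in WS against WW and 4.97% in AS against AW. The 3 salt arrays and the 3 water arrays overlapped for every gene in both comparisons, whereas they did not overlap for 5.44% of all probe sets in WS against WW and for 3.72% in AS against AW. The interaction, the salt change after Alethea minus the salt change without it, was -0.13 to 0.01, with an adjusted p of 1.00 for each gene. None was called, as was true of all probe sets (0%), and 0 of the 8 had an unadjusted p under 0.05, against 2.17% of all. The widest interval of an interaction, for CAB5, ran from -0.53 to 0.26, so the design bounds this term only loosely.

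**Figure D2:**
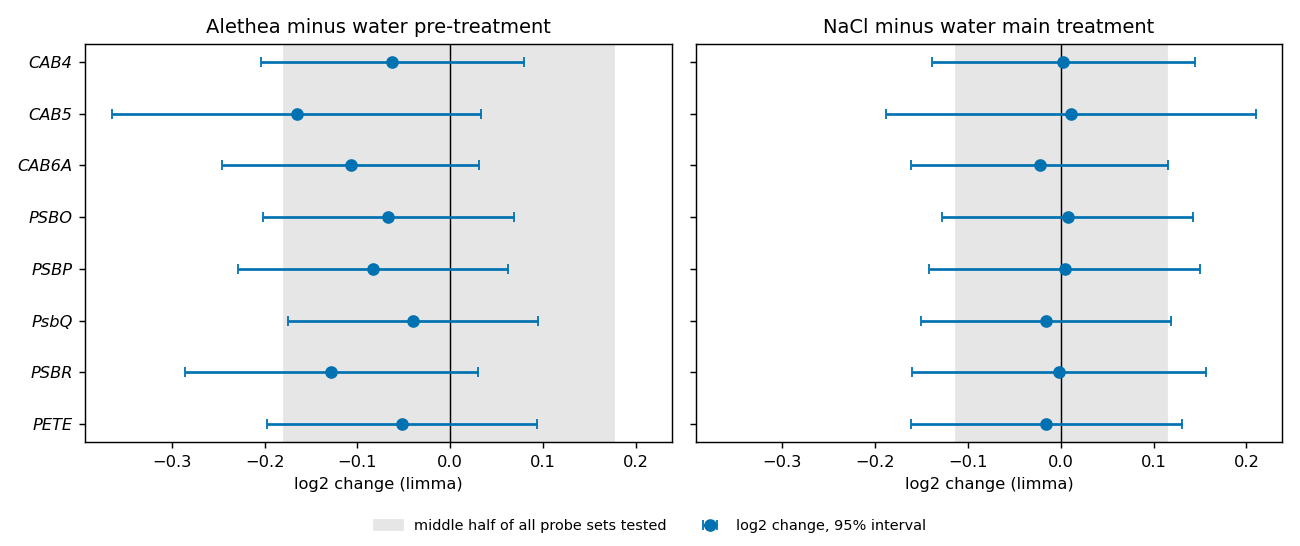
Log2 change of the 8 genes for Alethea minus water (left) and NaCl minus water (right), with 95% intervals from limma over 12 arrays; grey marks the middle 50% of all 7779 probe sets. Salt changes lie between -0.02 and 0.01 and Alethea changes between -0.17 and -0.04 in the deposited scaling (PSBO, PsbQ and PETE were above 0 after quantile normalisation), and every interval crosses 0.

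The second comparison set leaves sprayed with Alethea against leaves sprayed with water, over both main treatments. The estimates of all 8 genes were below 0, by small amounts, except that quantile normalisation of the arrays put PSBO at 0.021, PsbQ at 0.031 and PETE at 0.0032, and none was called under either scaling. The change was -0.17 for CAB5 at the largest and -0.04 for PsbQ at the smallest, with a median of -0.07. All probe sets had a median of -0.0035, and 50.6% of them were below 0. By limma 8.18% of all probe sets were called for Alethea, 3.57% higher and 4.60% lower, and 31.9% had an unadjusted p under 0.05, against 0 of the 8 genes. With an intensity trend in eBayes, the unadjusted count was 3 of the 8 genes, against 33.1% of all probe sets. Without the filter on low values, limma gave CAB6A an unadjusted p of 0.0183 and PSBR one of 0.0373. In that setting 26.5% of all probe sets were under 0.05. The 95% intervals of the 8 genes reached from -0.36 to 0.10, or 0.777 to 1.07 times the level after water. These genes share the same arrays and vary together, as given further on, so 8 genes below 0 are not 8 separate observations.

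Among the antenna genes, CAB5 and CAB4 encode chlorophyll a/b-binding proteins of the photosystem II antenna, LHCII. CAB5 read 15.09, 14.46 and 14.65 in AS leaves on occasions 1, 2 and 3, and 15.06, 14.59 and 14.71 in AW leaves. It read 15.16, 14.92 and 14.82 in WS leaves and 15.07, 14.97 and 14.62 in WW leaves. The lowest arrays were those of occasion 2 after Alethea, and the groups overlapped. The Alethea change of CAB5 was -0.17 (SE 0.09, adjusted p = 0.227), and it was lower in 5 of the 6 pairs of arrays that differ only in Alethea within an occasion. CAB5 was the most variable of the 8 genes, with an SD within groups of 0.25, where that of CAB4 was 0.06.

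CAB4 read 15.12, 15.11 and 15.11 in AS leaves and 15.23, 15.10 and 15.08 in AW leaves. In WS leaves it read 15.22, 15.21 and 15.18, and in WW leaves 15.17, 15.26 and 15.09. Under salt, the 3 Alethea arrays lay below the 3 water arrays with no overlap, and without salt they overlapped. CAB4 changed by -0.06 with Alethea (SE 0.06, adjusted p = 0.508), again lower in 5 of 6 pairs.

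CAB6A encodes an antenna protein of photosystem I. It read 15.24, 15.03 and 15.09 in AS leaves and 15.27, 15.06 and 15.13 in AW leaves. Its values were 15.31, 15.19 and 15.22 in WS leaves and 15.28, 15.26 and 15.21 in WW leaves. Of the 8 genes, CAB6A alone was lower after Alethea in 6 of 6 pairs, a pattern that 9.35% of all probe sets also had. Its change was -0.11 (SE 0.06, adjusted p = 0.257).

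PSBO, PSBP and PsbQ encode the extrinsic proteins of the oxygen-evolving complex, which sit on the lumen side of photosystem II. PSBO, the manganese-stabilising protein, read 15.06, 14.97 and 14.94 in AS leaves and 15.03, 14.95 and 14.98 in AW leaves, against 15.12, 15.00 and 15.05 in WS leaves and 15.12, 15.07 and 14.96 in WW leaves. Its 12 values span less than 0.2 log2 units, and its groups overlapped throughout. The Alethea change of PSBO was -0.07 (SE 0.06, adjusted p = 0.459).

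PSBP read 14.89, 14.60 and 14.65 in AS leaves and 14.80, 14.67 and 14.69 in AW leaves. It read 14.96, 14.74 and 14.72 in WS leaves and 14.93, 14.81 and 14.63 in WW leaves, with occasion 1 the highest in each group. PSBP changed by -0.08 with Alethea (SE 0.06, adjusted p = 0.393). PSBO and PSBP were each lower in 5 of 6 pairs.

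PsbQ read 15.01, 14.77 and 14.80 in AS leaves and 15.03, 14.81 and 14.86 in AW leaves, against 15.02, 14.90 and 14.84 in WS leaves and 15.03, 14.89 and 14.83 in WW leaves. On occasion 1 its 4 values differed by less than 0.02 log2 units. Its Alethea change was -0.04 (SE 0.06, adjusted p = 0.666), lower in 4 pairs, higher in 1 and equal in 1.

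PSBR encodes a small photosystem II protein of the lumen side that helps PSBP to bind. It read 14.93, 14.88 and 14.88 in AS leaves and 15.01, 14.91 and 14.85 in AW leaves. In WS leaves it read 15.01, 15.11 and 15.03, and in WW leaves 14.94, 15.19 and 14.95. The highest arrays of PSBR were both water pre-treated arrays of occasion 2. Like CAB4, it did not overlap between AS and WS leaves and did between AW and WW leaves. Its Alethea change was -0.13 (SE 0.07, adjusted p = 0.236), lower in 5 of 6 pairs.

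PETE encodes plastocyanin, the copper protein that carries electrons to photosystem I. It read 14.88, 14.59 and 14.62 in AS leaves and 14.88, 14.65 and 14.59 in AW leaves, against 14.82, 14.77 and 14.65 in WS leaves and 14.83, 14.79 and 14.67 in WW leaves. On occasion 1 both Alethea arrays were the higher ones, and on occasions 2 and 3 both were the lower ones. PETE changed by -0.05 (SE 0.06, adjusted p = 0.596), lower in 4 of 6 pairs.

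In all, 6 of the 8 genes were lower after Alethea in at least 5 of 6 pairs, as were 24.4% of all probe sets. In the deposited scaling, AS minus WS, under salt, was -0.23 for CAB5 to -0.05 for PETE, and AW minus WW, without salt, was -0.10 to -0.02. Quantile normalisation put AS minus WS above 0 for PSBO (0.031), PsbQ (0.030) and PETE (0.0072). It put AW minus WW above 0 for CAB4 (0.0018), PSBO (0.011) and PsbQ (0.033). None of the 8 genes was called in either comparison, and nor was any probe set (0%). The smallest adjusted p was 0.281 in AS against WS and 0.639 in AW against WW. At an unadjusted p under 0.05 the 8 genes counted 0 in each, against 23.4% of all probe sets in AS against WS and 12.7% in AW against WW. Without the filter on low values, limma gave CAB6A an unadjusted p of 0.0487 in AS against WS, where 20.0% of all probe sets were under 0.05. Groups of 3 did not overlap for CAB4 and PSBR, 2 of the 8 genes, between AS and WS leaves, against 14.5% of all probe sets. Between AW and WW leaves they overlapped for all 8 genes, while 5.51% of all probe sets did not overlap. Rank Product was the test by which the study defined its differentially regulated probe sets. Here it called none of the 8 genes for salt, for Alethea or in any of these 4 comparisons of groups. It called 2.97% of all probe sets for salt, 4.85% for Alethea and 0.283% to 0.900% in the 4 comparisons. Rank Product ranks changes by size without scaling them to their spread, and changes were smaller at the top of the scale, as given further on. Its lack of calls is therefore no separate check of genes at this level. By a Wilcoxon test of gene classes, the study also reported that light-reaction genes as a class changed significantly with Alethea. Within that class, it described NAD(P)H dehydrogenase subunit genes as raised by Alethea, and none of those is among the 8 genes. That class test was not run here.

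The size of the Alethea difference was not even over the occasions. On occasion 2 the change, as the mean of AS minus WS and AW minus WW, was below 0 for all 8 genes in the deposited scaling, at -0.08 for PSBO to -0.42 for CAB5. PSBR was at -0.25 and CAB6A at -0.18 on that occasion. On occasion 1 the changes were -0.10 for PSBP to 0.05 for PETE, and on occasion 3 they were -0.13 for PSBR to -0.0051 for PSBP. The median over the 8 genes was -0.03 on occasion 1, -0.15 on occasion 2 and -0.04 on occasion 3. Without occasion 2, the change of CAB5 was -0.04 in place of -0.17, PSBR was at -0.06 in place of -0.13, and PETE stood at 0.00057.

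The unevenness itself did not pass its test. A limma F-test of Alethea by occasion, in which the salt and water arrays of a pre-treatment and occasion served as replicates, called 0 of the 8 genes, against 1.30% of all probe sets. At an unadjusted p under 0.05 it counted 0 of the 8 genes, against 16.1% of all. Without the filter on low values, the F-test gave CAB5 an unadjusted p of 0.0218 (adjusted p = 0.223), where 16.2% of all probe sets were under 0.05. The other values here are those with the filter. CAB5 came nearest, with an adjusted p of 0.378, and the others had adjusted p-values of 0.606 to 0.985.

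**Figure D3:**
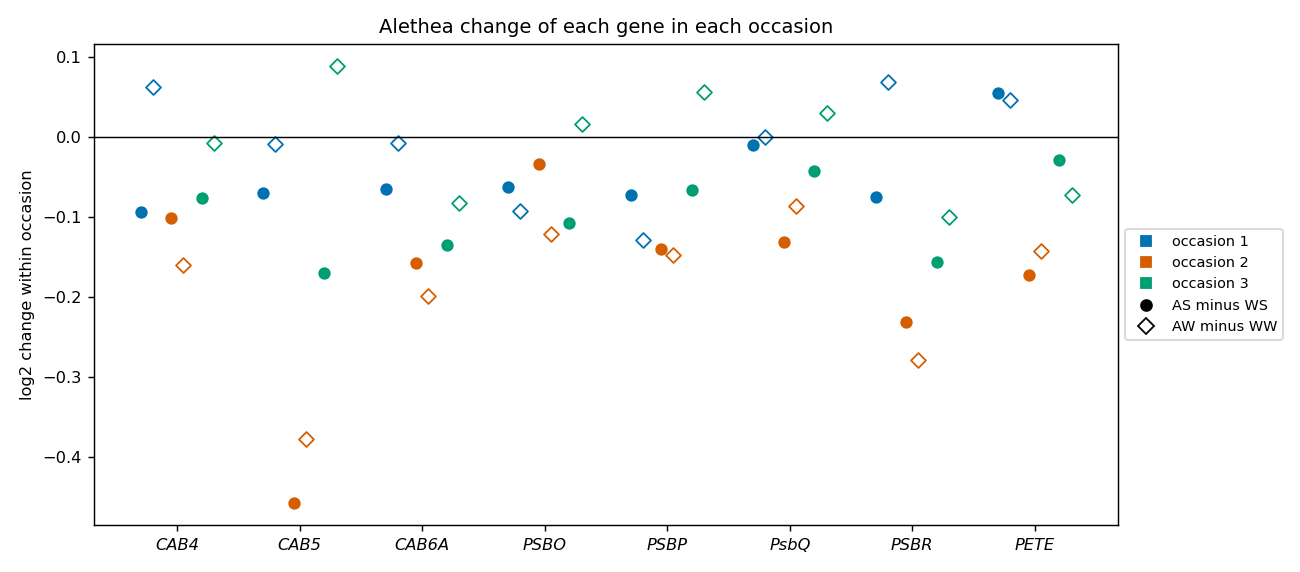
Log2 change with Alethea within each occasion for the 8 genes, filled circles for AS minus WS and open diamonds for AW minus WW, coloured by occasion. On occasion 2 every point is below 0 in the deposited scaling, and the lowest are those of CAB5, at -0.46 for AS minus WS and -0.38 for AW minus WW.

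Other probe sets at the top of the scale were also mostly below 0 for Alethea. Of the 7779 probe sets, 155 had a mean log2 value above 14, the 8 genes among them, and 74.8% of the 155 were below 0 for Alethea. With these 8 genes and the Affymetrix controls left out, 137 remained. Other photosynthesis genes were not removed: the psaD probe set and a ca2 probe set, both described further on, are among them. Since 9300 probe sets of the array have no symbol, how many more are among the 137 is not known. Of the 137, 72.3% were below 0, with a median change of -0.06 and a range of -0.26 to 0.67, and 15.3% were lower in 6 of 6 pairs. None of the 137 was called by limma for Alethea, with a smallest adjusted p of 0.0547, and 16 had an unadjusted p under 0.05. Among probe sets with a mean between 11 and 14, 6.38% were called and 48.3% were below 0.

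Changes of either sign were also smaller at the top. The median size of the Alethea change was 0.08 log2 units above 14 and 0.22 between 5 and 8, and that of the salt change 0.03 and 0.14. The SD within groups had a median of 0.13 above 14 and of 0.41 between 5 and 8. On occasion 2 the median of the Alethea changes was -0.15 over the 8 genes and -0.11 over the 137, 73.0% of which were below 0. When each array was shifted so that the 137 had the same median, the Alethea changes of the 8 genes were -0.15 to -0.02, all 8 below 0 and none called, against 6.86% of all probe sets.

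**Figure D4:**
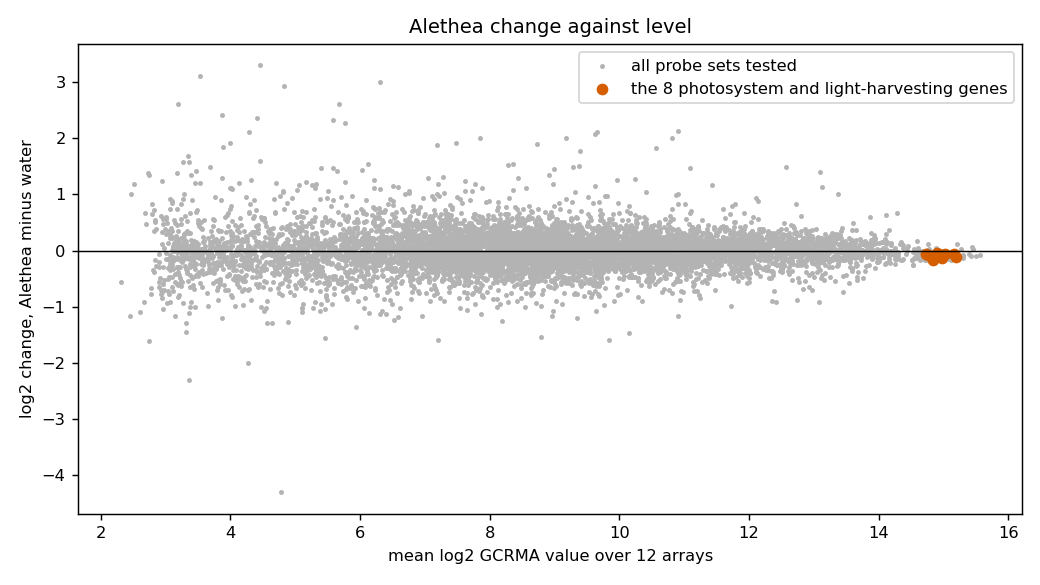
Log2 change, Alethea minus water (vertical axis), against the mean log2 GCRMA value over 12 arrays (horizontal axis) for 7779 probe sets, with the 8 genes in orange. The spread of changes narrows towards the top of the scale, where the 8 genes lie between -0.17 and -0.04 in the deposited scaling, 3 of them above 0 after quantile normalisation.

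Signs of RNA quality moved with Alethea as well. The Affymetrix actin control is read at both ends of the transcript, and a larger 3' minus 5' value means less signal from the 5' end. That value was 0.94 to 1.72 on the 6 Alethea arrays and 0.54 to 0.86 on the 6 water arrays. It was higher by 0.65 on average (SD 0.41) and in 6 of 6 pairs. The GAPDH control differed by 0.16 (SD 0.09), also in 6 of 6 pairs. By occasion, the actin difference was 0.64, 0.91 and 0.42. The hybridisation controls, spiked in after the RNA was labelled, averaged 11.25 in AS and 11.24 in AW leaves on occasion 2, against 12.41 in WS and 12.47 in WW leaves, and between 10.79 and 11.69 on the arrays of the other occasions. The part of these differences in the Alethea changes of the 8 genes was not tested.

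The third comparison was between occasions, as the spread against which treatments are read. An F-test in the same fit called 1 of the 8 genes, CAB5, against 54.1% of all probe sets and 30.3% of those above 14. Its occasion means were 15.10, 14.73 and 14.70, so it was higher on occasion 1 by 0.38 than the mean of occasions 2 and 3 (adjusted p = 0.0220). Without occasion 1, no gene of the 8 was called between occasions 2 and 3, and nor were most probe sets (0.580% called). Without occasion 3, none of the 8 was called between occasions 1 and 2, against 37.0% of all probe sets, and the adjusted p of CAB5 was 0.0808. With an intensity trend in eBayes, 5 of the 8 genes were called between occasions, against 56.2% of all probe sets. At an unadjusted p under 0.05 there were 3 of the 8 genes, CAB5, PSBP and PsbQ, against 61.5% of all probe sets. PSBP was higher on occasion 1 by 0.21 (adjusted p = 0.0699), PsbQ by 0.19 (adjusted p = 0.0790) and PETE by 0.19 (adjusted p = 0.0862). CAB4 differed by 0.04 and PSBR by -0.0050, with adjusted p-values of 0.704 and 0.601.

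Where the variation of each gene lay was also read as a share of its sum of squares over the 12 arrays. Occasion took 86.5% of the variation of PsbQ, 76.2% of PETE, 72.5% of PSBP and 64.6% of CAB5. It took 51.3% for PSBO and 47.1% for CAB6A, near the median of 51.5% over all probe sets, and less for CAB4, 23.8%, and PSBR, 16.3%. Alethea took the most in PSBR, 44.4%, and in CAB6A, 36.9%, and the least in PsbQ, 4.41%, where the median over all probe sets was 8.24%. Salt took 1.66% at most, in CAB6A, and 0.0085% at least, in PSBR, where the median over all probe sets was 3.04%. These shares are descriptions of small absolute differences, since all 8 genes varied by less than 0.7 log2 units.

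**Figure D5:**
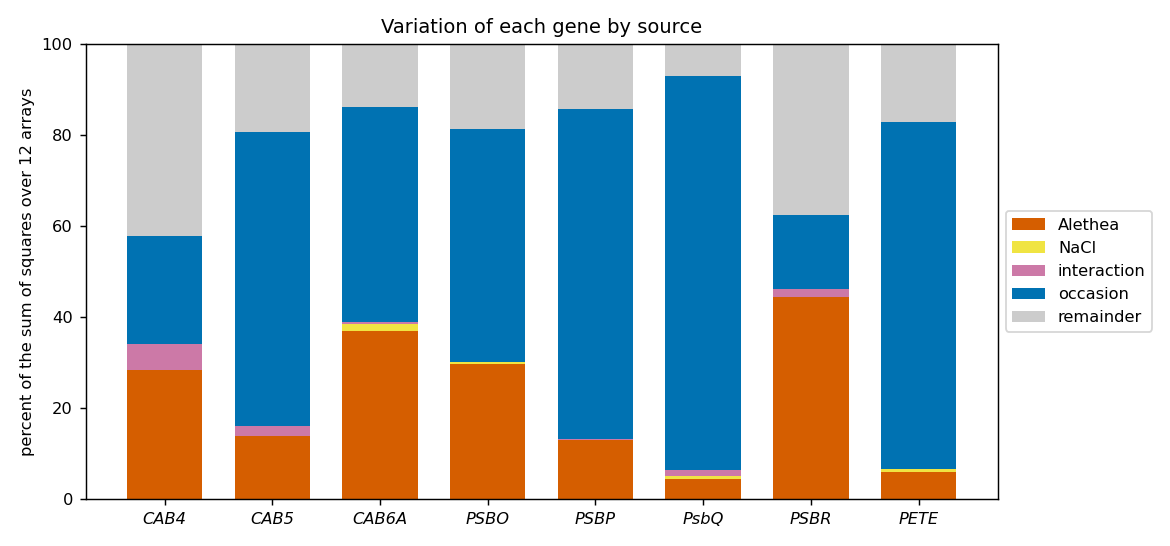
Share of the sum of squares of each gene over 12 arrays, in percent (vertical axis), taken by Alethea, NaCl, their interaction, occasion and the remainder. Occasion takes from 16.3% in PSBR to 86.5% in PsbQ, and salt takes at most 1.66%.

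The genes varied together from array to array. Over the 12 arrays, deviations from the group means had a Pearson correlation of 0.14 to 0.97 in the 28 pairs of genes, with a median of 0.81 and none below 0. The arrays share occasions and their normalisation, so these values describe the arrays and carry no test. CAB5 and PsbQ were the most alike, at 0.97, and CAB5 and PSBP stood at 0.95. PSBR stood apart: its correlation was 0.81 with CAB4 and between 0.14 and 0.44 with the other 6 genes. CAB4 and PSBR are also the genes with the smallest share of variation between occasions.

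Photosynthesis genes outside the naming rule were few under their symbols. The list of further symbols matched 8 probe sets, and 5 passed the filter on low values: 1 for GSA-AT, an enzyme of chlorophyll precursor synthesis, 3 for the carbonic anhydrase ca2 and 1 for the carbonic anhydrase ca1. None of the 5 was called by limma for salt or for Alethea, beside 0.0386% and 8.18% of all probe sets. Their median change was 0.15 for salt and 0.03 for Alethea, and 2 of the 5 were below 0 for Alethea.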

How the data were processed

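Leaf RNA was hybridised to 12 Affymetrix Tomato Genome arrays, 3 per group. The deposited values of the 10209 probe sets are on a log2 scale, after GCRMA normalisation by the authors (version not stated). Signals of single probes were not used here. Sample labels gave each of the 12 columns its group. Symbols are those of the array annotation, checked by gene ID against the RefSeq table, whose coordinates were not used.

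As in the study's methods, probe sets with a group mean above 3.2 in at least 1 group were kept, which left 7779, a number slightly different from that given in the methods. The fit used lmFit and eBayes (constant prior) of limma 3.58.1, run in R 4.3.3, with a mean for each of the 4 groups and occasion as a block. It had 6 residual and 2.63 prior degrees of freedom, and precision is limited by how few arrays there are. P-values were adjusted by Benjamini-Hochberg over all probe sets kept. Pairing rests on the study's description of separate occasions, with the replicate number in a sample label taken as the occasion. Deviations from group means over all probe sets kept correlated at 0.44 to 0.87 for the 18 same-occasion pairs of arrays. For pairs of arrays from different occasions they correlated at -0.88 to 0.63, so the ranges overlap. Rank Product was run in Python 3.11.15 with 1000 permutations. The limma scripts were tested on simulated data of this design, and Rank Product on simulated independent differences without occasions.

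All 8 genes were described, with no further selection. These genes, the list of other photosynthesis symbols and the fruit markers were chosen with earlier results of these data known. Alternatives were the block, the filter, re-centring, quantile normalisation, an intensity trend in eBayes, each occasion left out, 1 row per symbol, means per pre-treatment and occasion, and Rank Product. Aligning the arrays on other bright probe sets was chosen after seeing the data.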

Additional observations from a re-analysis of the deposited data

How the results depend on the processing

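With 12 arrays, the widest 95% interval of an Alethea change reached -0.36, and background signal cannot be read from the deposited values. In the 8 comparisons between treatments that called none of the 8 genes, all 95 values under other settings were also 0. Over all probe sets, those settings called 0% to 11.5% for Alethea and 0% to 2.97% for salt. For the interaction, and by limma for AS against AW, they called 0% throughout, so those zeros say nothing about the 8 genes. The smallest adjusted p was 0.0759, for Alethea with an intensity trend in eBayes. In that setting 3 of the 8 genes had an unadjusted p under 0.05, against 33.1% of all probe sets. Without the replicate block, which pairs arrays by occasion, 0 of the 8 genes were called for Alethea and 0 for salt. Of all probe sets, 0% were called for either, so this is not particular to the 8 genes. Their smallest adjusted p for Alethea was then 0.585. Treating the means per pre-treatment and occasion as the samples gave the 8 genes a smallest adjusted p of 0.485 for Alethea, and 0% of all probe sets were called. The occasion test called 4 of the 8 genes without the filter (41.0% of all probe sets) and 5 with the intensity trend (CAB5, CAB6A, PSBP, PsbQ and PETE; 56.2% of all), against 1 (54.1% of all), so the share of the 8 genes was not below that of all probe sets under those settings. With an occasion left out it called 0 to 1; the cause was not tested. Over all probe sets, 0 were called for Alethea without occasion 2 and 0 without occasion 3, against 636. Quantile normalisation turned the Alethea change to 0.021 for PSBO, 0.031 for PsbQ and 0.0032 for PETE, left 5 of 8 genes below 0, and moved the median to -0.014. Leaving out occasions, the Alethea change of PETE ran from -0.10 to 0.00057; the other 7 stayed below 0. Salt changes near 0 turned sign. Re-centring on medians gave -0.014 for CAB4, -0.0054 for CAB5, -0.0092 for PSBO and -0.013 for PSBP. Quantile normalisation gave -0.0019 for CAB4, -0.014 for CAB5 and -0.027 for PSBP. Alignment on bright probe sets gave -0.0066 for CAB4, -0.0020 for PSBO and -0.0053 for PSBP. With an occasion left out, the salt change ran from -0.024 to 0.019 for CAB4, from -0.015 to 0.059 for CAB5, from -0.0039 to 0.024 for PSBO, from -0.022 to 0.041 for PSBP and from -0.028 to 0.024 for PSBR.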

Other observations

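A photosystem I subunit outside the naming rule was noticed after its values were seen. The probe set whose symbol is a locus number and whose RefSeq synonym is psaD, the subunit that docks ferredoxin at photosystem I, lay between 14.86 and 15.37. It read 15.29, 14.86 and 14.86 in AS leaves on occasions 1, 2 and 3, and 15.28, 14.94 and 14.93 in AW leaves. It read 15.37, 15.11 and 15.14 in WS leaves and 15.33, 15.10 and 15.13 in WW leaves. The Alethea change was -0.17 (SE 0.06), lower in 6 of 6 pairs and not called by limma (adjusted p = 0.106), and the salt change was -0.01 (adjusted p = 0.956). Between occasions it was called, with an adjusted p of 0.0132.

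Carbonic anhydrases interconvert carbon dioxide and bicarbonate in the leaf. The 3 ca2 probe sets kept had salt changes of 0.15, 0.23 and 0.27 (adjusted p = 0.522 to 0.620) and Alethea changes of 0.20, 0.05 and -0.01, in the same order (adjusted p = 0.264 to 0.961). The ca1 probe set had an Alethea change of -0.12 (SE 0.08, adjusted p = 0.338), lower in 6 of 6 pairs. GSA-AT had a salt change of -0.11 (SE 0.07, adjusted p = 0.519).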
